A study of Mus musculus with 4 samples.

Results

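The cytosolic glutathione S-transferases of the alpha, mu, pi and theta classes were followed in livers that lack polynucleotide phosphorylase in hepatocytes. The set was chosen by gene symbol, with earlier results of these data known. It comprised Gsta1, Gsta2, Gsta3 and Gsta4 (alpha class), Gstm1, Gstm2, Gstm3 and Gstm4 (mu class), Gstp1 (pi class) and Gstt1 (theta class). These were 10 of the 16358 named genes with a probe on the array. All 10 were well above background in both genotypes on all 4 arrays, and all 10 were among the 11495 named genes that passed the filter on dim probes and were tested.

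Glutathione S-transferases join the thiol of glutathione to electrophiles such as drug metabolites, epoxides and the aldehydes made when lipids are oxidised. The conjugates leave the cell through ABCC transporters, so that the enzymes depend on glutathione supply on one side and export on the other. In mouse liver the alpha, mu and pi classes are the abundant ones, and the basal and inducible transcription of many of them depends on the factor NRF2, which binds antioxidant response elements. The receptors CAR, PXR and AHR also act on some of these genes. Polynucleotide phosphorylase, encoded by Pnpt1, is a mitochondrial RNA-processing enzyme.

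RNA from 4 C57BL/6J mice was hybridised to 4 two-colour Agilent arrays. HepKO mice were Pnpt1 fl/fl with 1 copy of Albumin-Cre, a transgene active in hepatocytes, and WT mice were Pnpt1 fl/fl without Cre, so that both genotypes carried the floxed alleles. Each HepKO mouse was matched with a WT mouse for age, litter and sex, giving 2 pairs, and each pair was compared on 2 arrays, the second with the dyes swapped. The mice labelled male were 12.29 weeks old (12.9 weeks in another of their labels), and those labelled female were 4.29 weeks old. In the pair labelled male the HepKO mouse weighed 17.37 g and its WT partner 22.7 g, and in the pair labelled female the weights were 16.81 g and 18.49 g. The RNA came from the cell pellet of collagenase-perfused liver, and no sort for hepatocytes is named in the labels, so that other liver cells could be present.

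Both labels of sex ran against the sex-linked genes. In the pair labelled male, Xist exceeded background on both arrays and the Y-linked genes Kdm5d, Ddx3y and Eif2s3y on neither. The pair labelled female showed the opposite, in both genotypes alike. The pairs are therefore called by their labels only. Labelled sex, age and slide changed together between them and cannot be told apart. The targeted gene was measured by 2 probes. The brighter Pnpt1 probe gave a mean log2 ratio of -0.10 (adjusted p = 0.747, limma), with 0.31 and 0.06 in the pair labelled male and -0.38 on both arrays of the pair labelled female. The dimmer one gave -0.52, with all 4 arrays below 0. Whether either probe lies in the deleted part of the gene was not tested. Between 48.2% and 58.6% of probes were well above background per array and genotype, and 0 spots were saturated.

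Values below are log2 ratios of HepKO over WT after normexp background correction and loess within each array. The mean of both dye orientations gave 1 value per pair, so that n = 2 pairs for every mean, and errors are limma's moderated standard errors (SE). Adjusted p-values are limma's, with Benjamini-Hochberg adjustment over the 11495 genes. A gene was called higher or lower at an adjusted p below 0.05. The small number of pairs limits the precision. The p-values rest on the spread between these pairs, combined with a spread that limma borrows from all genes tested, and on no other mice. Of all genes tested, 1378 (12%) were called higher and 427 (3.71%) lower in HepKO liver. The median of all genes was 0.08. All these calls rest on how the background was modelled and on which probes were tested, since 0 genes passed when the background model was fitted with the outlier spots included (smallest adjusted p 0.0707, limma) and 0 passed when dim probes were kept (0.0689). At an unadjusted p below 0.05, 3021 and 4638 genes passed in those settings, against 4179 in the main one.

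Of the 10 transferases, 4 were called higher (Gsta1, Gsta2, Gstm2 and Gstm3), 1 was called lower (Gstt1) and 5 were not called. Over all genes these shares were 12% higher and 3.71% lower, or 15.7% in either direction. The members were chosen with earlier results of these data known, so their shares are not an independent comparison. The median of the 10 was 1.07, with 1.54 in the pair labelled male and 0.46 in the pair labelled female. Both HepKO mice lay above both WT mice for 7 members and below both for 2, as they did for 41.9% and 26.8% of all genes. The log2 ratio had the same sign on all 4 arrays for 8 members, and so it did for 64.4% of all genes. Agreement in sign over the arrays was thus common among all genes, and Gsta1 had the largest change of the set.

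**Figure D1:**
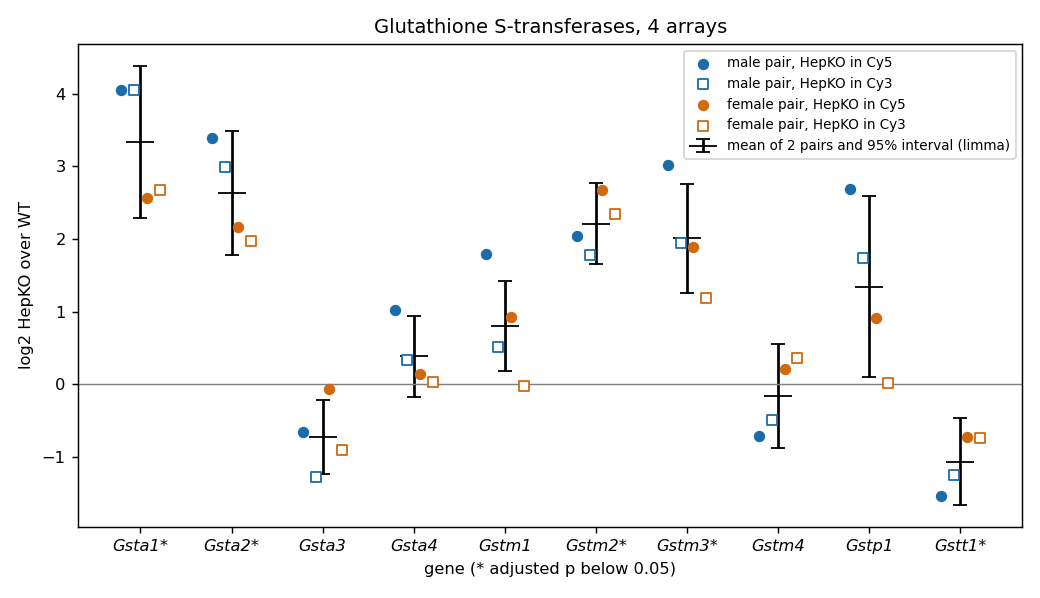
Log2 ratio of HepKO over WT (y axis) for the 10 transferases (x axis) on each of the 4 arrays. Colour gives the pair and the marker gives the dye of the HepKO RNA. Black bars are the mean of the 2 pairs with limma's 95% confidence interval, and asterisks mark the genes called. Gsta1 had the largest mean, 3.34, and Gstt1 the lowest, -1.06.

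The alpha class held the largest rise and also a gene that tended the other way. Gsta1 and Gsta2 encode closely related alpha-class subunits that are low in untreated mouse liver and inducible, whereas Gsta3 encodes an alpha-class subunit that is abundant there without induction. The 250 bases before the annotated start of these 3 genes are shown because Gsta1 and Gsta2 moved together while Gsta3 did not. The sequences are RefSeq's on GRCm38.p6, 5′ to 3′ on the gene's strand. In Gsta1 and Gsta2 the capitals mark the longest run that both share, 29 bases. In Gsta3 they mark a match to the antioxidant response element core.
Gsta1, chr9:78230419-78230668, plus strand: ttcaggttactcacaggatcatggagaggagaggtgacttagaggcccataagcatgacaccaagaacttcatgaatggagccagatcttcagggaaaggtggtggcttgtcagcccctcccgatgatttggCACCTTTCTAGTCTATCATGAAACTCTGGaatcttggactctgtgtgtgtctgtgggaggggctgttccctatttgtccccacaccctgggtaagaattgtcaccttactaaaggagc
Gsta2, chr9:78347146-78347395, minus strand: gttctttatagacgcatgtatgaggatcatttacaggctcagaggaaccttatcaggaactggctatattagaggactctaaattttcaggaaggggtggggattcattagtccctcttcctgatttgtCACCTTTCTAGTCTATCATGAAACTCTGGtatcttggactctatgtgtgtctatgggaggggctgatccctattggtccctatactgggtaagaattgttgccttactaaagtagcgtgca
Gsta3, chr1:21240335-21240584, plus strand: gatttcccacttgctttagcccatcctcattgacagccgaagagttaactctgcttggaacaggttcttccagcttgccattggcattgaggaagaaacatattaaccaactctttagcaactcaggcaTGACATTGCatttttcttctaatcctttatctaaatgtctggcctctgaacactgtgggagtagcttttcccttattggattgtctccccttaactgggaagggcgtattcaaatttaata

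RefSeq windows of 300 bases (250 before to 50 after the start) were found for 9 of the 10 members, all except Gsta4. The Gsta1 and Gsta2 windows were 74.0% identical in a global alignment, whereas the other 35 pairs of members lay between 35.5% and 47.2%. The shared run began 118 bases before the start of Gsta1 and 121 bases before that of Gsta2. The antioxidant response element core was searched as TGACNNNGC on both strands. It was found in 1 of the 9 members, Gsta3, as TGACATTGC with its first base 121 bases before the start, and in 12.4% of the 32851 RefSeq windows of mouse genes. These letters were thus absent from the windows of the 4 members called higher, which says nothing of sites outside the windows or of binding.

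Gsta1 rose in HepKO liver. In the pair labelled male its log2 ratio was 4.06 on both arrays, and in the pair labelled female it was 2.57 with HepKO in Cy5 and 2.68 with HepKO in Cy3. The log2 levels were 15.09 and 15.16 in the HepKO mice labelled male and female, and 11.03 and 12.54 in their WT partners. The groups did not overlap, and the HepKO mice were nearly level with each other while the WT mice differed by 1.51. The mean change was 3.34 ± 0.38 (SE, n = 2 pairs, 95% confidence interval 2.29 to 4.38), which is 10.1-fold (adjusted p = 0.0187, limma). It ranked 68th among the highest of the 11495 genes.

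Gsta2 also rose, with a smaller change that was again larger in the pair labelled male. Its log2 ratio was 3.39 and 2.99 on the arrays of the pair labelled male (HepKO in Cy5, then in Cy3) and 2.17 and 1.98 on those of the pair labelled female. The HepKO mice had log2 levels of 12.84 and 12.88, and the WT mice 9.65 and 10.81. Again the HepKO mice were nearly equal and the WT mice were not. The mean change was 2.63 ± 0.31 (SE, n = 2 pairs), or 6.20-fold (adjusted p = 0.0195, limma). Each of Gsta1 and Gsta2 was measured by 1 probe, and a shared signal between such close relatives was not tested.

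Gsta3 was below its WT partner on all 4 arrays but was not called. Its brighter probe gave log2 ratios of -0.66 and -1.27 in the pair labelled male and -0.06 and -0.90 in the pair labelled female. A second probe gave -0.85, -1.10, -0.24 and -0.72 on the same arrays. The means of the probes were -0.72 and -0.73, so that they differed far less than the arrays did. The log2 level was 16.17 and 16.68 in HepKO mice and 17.13 and 17.17 in WT mice, without overlap, and the mean change had an adjusted p of 0.0731 (SE 0.18, limma). It passed the threshold with median centring in place of loess (-1.30, adjusted p = 0.045, limma), without replicate 1 of the pair labelled female (-0.94, adjusted p = 0.039) and when only arrays with Cy3-labelled HepKO RNA were used (-1.09, adjusted p = 0.0202). With only the Cy5-labelled ones its mean was -0.36 (adjusted p = 0.301, limma). Over all alternatives its adjusted p lay between 0.0202 and 0.301.

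Gsta4, whose product acts on 4-hydroxynonenal and related lipid aldehydes, was not called. The log2 ratio was 1.03 and 0.34 in the pair labelled male and 0.14 and 0.03 in the pair labelled female, so that most of its mean of 0.38 ± 0.20 (SE, n = 2 pairs, adjusted p = 0.251, limma) came from 1 array. Without that array the mean was 0.21. Its probe was printed in 10 spots per array, whereas the probes of the other members were printed once.

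**Figure D2:**
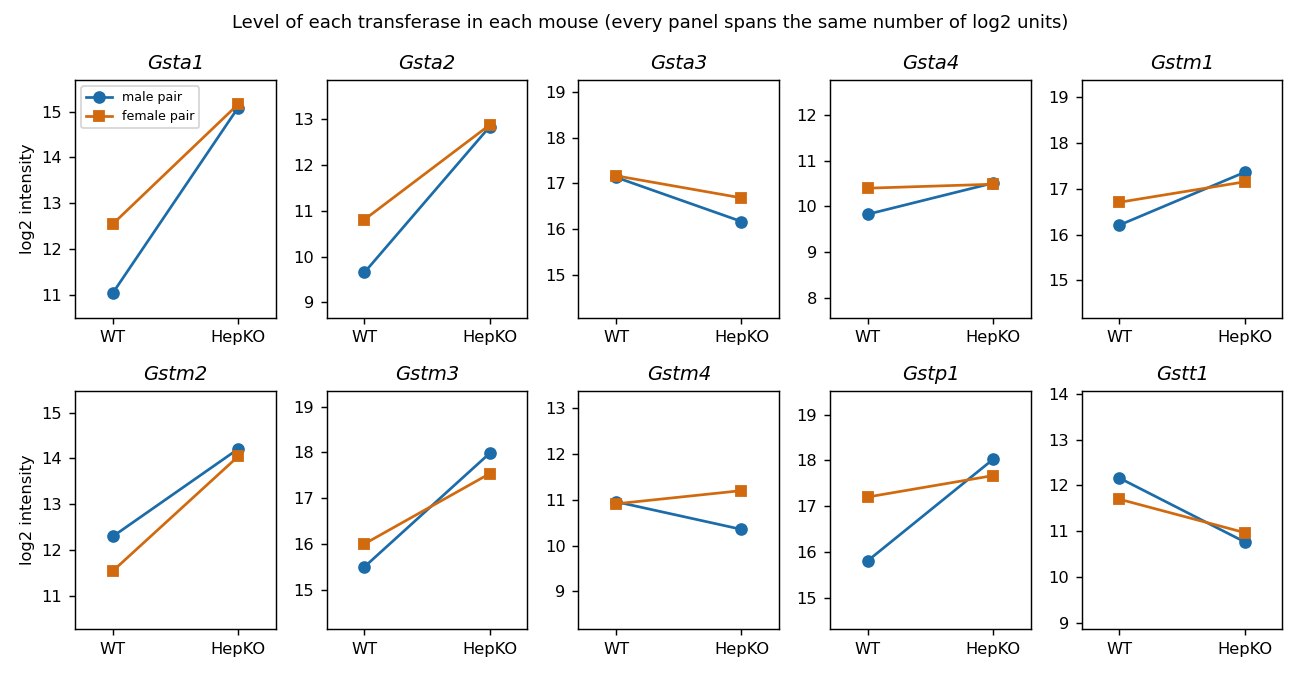
Log2 intensity (y axis) of each of the 10 transferases in the WT and HepKO mouse of each pair (x axis), averaged over both dyes after quantile normalisation between arrays. Each line joins the mice of a pair, and levels may be compared within a panel, not between panels. The HepKO ends of the lines nearly coincide for Gsta1, Gsta2 and Gsta4, where the WT ends lie 1.51, 1.16 and 0.57 apart.

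The mu class changed gene by gene along its cluster on chromosome 3. In the RefSeq order, with no other coding gene between them, the cluster runs Gstm5, Gstm7, Gstm6, Gstm3, Gstm2, Gstm1 and Gstm4. Gstm3 and Gstm2 lie side by side and were called higher. Gstm6, on the other side of Gstm3, was called lower at -1.07 ± 0.16 (SE, n = 2 pairs, adjusted p = 0.0272, limma). The outer genes Gstm5 and Gstm4 had means of -0.66 and -0.16 and were not called, and Gstm7 was not measured here. Gstm5 was singled out for its place in the cluster after its value was seen. Gstm2, Gstm3 and Gstm4 were each measured by 1 probe, and a signal shared between relatives of this class was not tested.

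Gstm2 was the only member with a larger change in the pair labelled female. The log2 ratio was 2.67 and 2.34 there, and 2.05 and 1.78 in the pair labelled male, each time the HepKO-in-Cy5 array first. Log2 levels were 14.21 and 14.04 in HepKO mice and 12.29 and 11.54 in WT mice (labelled male, then female). All 4 arrays were thus high and close to each other. The mean of 2.21 ± 0.20 (SE, n = 2 pairs), or 4.63-fold, had the smallest adjusted p of the family, 0.0152 (limma).

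Gstm3 rose by 2.01 ± 0.27 (SE, n = 2 pairs), which is 4.04-fold (adjusted p = 0.0243, limma). Its log2 ratio was 3.02 and 1.95 in the pair labelled male and 1.89 and 1.18 in the pair labelled female. HepKO mice had log2 levels of 17.98 and 17.54 and WT mice 15.49 and 16.00, without overlap. The call was lost without replicate 1 of the pair labelled female (1.83, adjusted p = 0.0535, limma), and the adjusted p lay between 0.00795 and 0.113 over all alternatives.

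Gstm1, the major mu-class subunit of mouse liver, was not called. The brighter of its 2 probes gave 1.80 and 0.51 in the pair labelled male and 0.92 and -0.03 in the pair labelled female. The second probe gave 1.22, 1.34, 0.35 and 0.75 on the same arrays, with the dye orientations in the opposite order. Averaged over dyes the probes came close to each other, at 0.80 ± 0.22 (SE, n = 2 pairs, adjusted p = 0.0868, limma) and 0.91. Log2 levels of the brighter probe were 17.36 and 17.15 in HepKO mice and 16.21 and 16.71 in WT mice. Its mean moved to 0.22 with median centring, and it was called without replicate 2 of the pair labelled female (1.04, adjusted p = 0.0242, limma) and when only arrays with Cy5-labelled HepKO RNA were used (1.36, adjusted p = 0.0371). Over all alternatives the adjusted p lay between 0.0242 and 0.487.

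Gstm4 was the 1 member whose mouse levels overlapped between genotypes. The log2 ratio was -0.71 and -0.50 in the pair labelled male and 0.22 and 0.36 in the pair labelled female, so that the pairs lay on opposite sides of 0 on every array. The mean was -0.16 ± 0.26 (SE, n = 2 pairs, adjusted p = 0.693, limma).

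**Figure D3:**
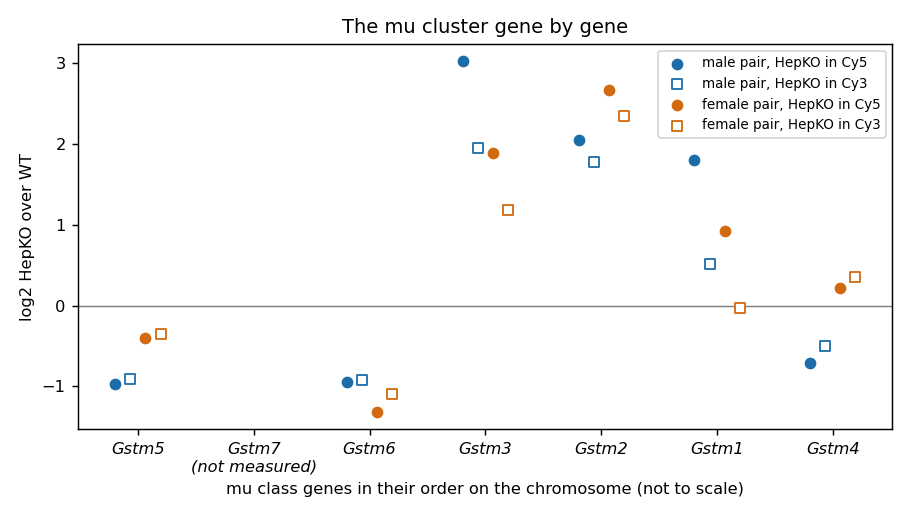
Log2 ratio of HepKO over WT (y axis) on the 4 arrays for the mu-class genes in their RefSeq order on chromosome 3 (x axis, order only). Colour gives the pair and the marker the dye of the HepKO RNA. The high values of Gstm3 and Gstm2 lie between Gstm6, with a mean of -1.07, and Gstm1, with a mean of 0.80.

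Gstp1 encodes the pi-class subunit, an abundant enzyme of mouse liver and known in the rat as a marker of preneoplastic foci. It had the largest difference between the pairs of all members and was not called. The log2 ratio was 2.70 and 1.74 in the pair labelled male and 0.91 and 0.02 in the pair labelled female. Its second probe gave 2.07, 1.64, 0.80 and 0.10. Both probes thus showed the same order of arrays, with means of 1.34 and 1.16. Log2 levels of the brighter probe were 18.02 and 17.67 in HepKO mice and 15.80 and 17.20 in WT mice, so that the WT mice differed by 1.39 and the HepKO mice by less. The mean change was 1.34 ± 0.45 (SE, n = 2 pairs, 95% confidence interval 0.10 to 2.59, adjusted p = 0.121, limma). Without replicate 2 of the pair labelled female it was 1.57 with an adjusted p of 0.0498 (limma), and over all alternatives the adjusted p lay between 0.0498 and 0.26. With median centring the mean was 0.73. Gstp1 lies next to Gstp2 and Gstp3 on chromosome 19. Gstp2 was not tested, and Gstp3 had a mean of 0.22. A signal from these relatives on the Gstp1 probes was not tested.

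Gstt1, a theta-class subunit that acts on small halogenated compounds, was the member called lower. The log2 ratio was -1.54 and -1.25 in the pair labelled male and -0.73 and -0.74 in the pair labelled female. HepKO mice had log2 levels of 10.76 and 10.97, below the WT levels of 12.16 and 11.70. The mean change was -1.06 ± 0.22 (SE, n = 2 pairs), which is 2.09-fold lower (adjusted p = 0.0484, limma). This adjusted p lay just inside the threshold. The call was lost in 9 of 14 alternative settings, in which the mean lay between -1.14 and -1.05, and the adjusted p ranged from 0.031 to 0.136 over all 14. They included leaving out replicate 2 of the pair labelled male (adjusted p = 0.074, limma) and replicate 1 of the pair labelled female (adjusted p = 0.06). On chromosome 10 the RefSeq order is Gstt3, Gstt1, Gstt4 and Gstt2. Gstt3 and Gstt2 had means of -0.14 and -0.15 and were not called, and Gstt4 was not tested. The mean of Gstt3 joined pairs on opposite sides of 0. Its log2 ratio was -0.51 and -0.77 in the pair labelled male and 0.38 and 0.31 in the pair labelled female.

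The size of the change differed between the pairs for most members. It was larger in the pair labelled male for 9 members. Ratios also spread more there over the whole array. The SD of the log2 ratios of non-control spots was 0.72 and 0.65 in the pair labelled male. In the pair labelled female it was 0.54 and 0.50. The share of all genes with a larger change in the pair labelled male was not counted. Gstp1 differed by 1.75, Gsta1 by 1.44 and Gsta2 by 1.12 on the log2 scale, where the median difference between the pairs was 0.24 over all genes and 0.38 over the called ones. With 1 pair of each label this difference was not tested. For 8 of the 10 members the WT mice lay further apart than the HepKO mice, as they did for 41.9% of all genes. The exceptions were Gsta3 and Gstm4.

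The dye orientation moved the 4 members whose log2 level exceeded 15 in all mice. For Gstm1, Gstm3, Gstp1 and Gsta3 the array with HepKO in Cy5 exceeded its partner by 1.28, 1.07, 0.95 and 0.61 in the pair labelled male. In the pair labelled female the gaps were 0.95, 0.71, 0.89 and 0.84. The 111 genes with a log2 level above 15 in all 4 mice had median gaps of 0.51 and 0.34, whereas the medians of all genes were -0.001 and 0.03. This gap cancels in the mean of a pair, but the means of these 4 members also moved with the normalisation. With loess, Gstm1, Gstm3, Gstp1 and Gsta3 had means of 0.80, 2.01, 1.34 and -0.72. With median centring all 4 were lower, at 0.22, 1.44, 0.73 and -1.30. The cause was not tested. Gsta4 had a gap of 0.69 in the pair labelled male and 0.11 in the other, and for Gsta1 and Gstt1 it was at most 0.29 in size.

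The other glutathione transferases were spread on both sides of 0. Of 14 tested, 1 was called higher (7.14%, with 12% over all genes) and 1 lower (7.14%, with 3.71%), with a median of -0.20. Mgst2, a microsomal member with glutathione transferase and leukotriene C4 synthase activity, was called higher at 1.93 ± 0.18 (SE, n = 2 pairs, adjusted p = 0.0152, limma), and Gstm6 was the one called lower. Without replicate 1 of the pair labelled male 2 were lower.

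Genes that make, recycle and use glutathione were called at shares near those of all genes. Of 28 tested, 5 were called higher (17.9%, with 12% over all genes) and 1 lower (3.57%, with 3.71%), with a median of 0.22. The largest rises were those of Gpx7, an endoplasmic reticulum peroxidase (2.13 ± 0.29), and Slc3a2, the heavy chain of the cystine and other amino acid exchangers (1.55 ± 0.28). Gpx3, the secreted glutathione peroxidase, rose by 1.05 ± 0.18, and G6pdx, which supplies NADPH, rose by 0.97 ± 0.17 (SE, n = 2 pairs, adjusted p between 0.0248 and 0.0384 for these 4, limma). Glo1, which clears methylglyoxal with glutathione, was called lower at -0.85 ± 0.15. Without replicate 2 of the pair labelled male, 1 gene of the list was called higher and 0 lower. Without replicate 1 of the pair labelled female 0 were lower, and without either of the other arrays 2 were. Neither subunit of the rate-limiting synthetic enzyme was called. Gclc had a mean of 0.90 (adjusted p = 0.0900, limma) and Gclm one of -0.27 (adjusted p = 0.250). Both were singled out for their role after their values were seen.

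Exporters of glutathione conjugates and other organic anions were a short list. Of 8 tested, 2 were called higher (25%, with 12% over all genes) and 2 lower (25%, with 3.71%). Abcc4 rose by 1.99 ± 0.14 and Abcc5 by 1.15 ± 0.16, both of which also export cyclic nucleotides. Abcc6 was lower at -1.14 ± 0.23 and Abcc3 at -0.84 ± 0.15 (SE, n = 2 pairs, adjusted p between 0.0122 and 0.0468 for the 4, limma). Without replicate 2 of the pair labelled male 0 exporters were lower, and without replicate 1 of the pair labelled female 1 was higher and 0 lower. Abcc2, the canalicular exporter of glutathione conjugates, had a mean of 0.39 and was not called.

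The known NRF2 targets outside the family included several large rises. Of 27 tested, 11 were called higher (40.7%, with 12% over all genes) and 0 lower at the adjusted threshold of limma, with a median of 0.59. This list, like the other lists, was written with earlier results of these data known, so its share is not an independent comparison. Akr1b7, an aldose reductase-like enzyme, rose by 3.17 ± 0.29, and Cbr3, a carbonyl reductase, by 2.78 ± 0.15. Trib3, a pseudokinase also induced by the integrated stress response, rose by 2.17 ± 0.28, and Hmox1, the inducible haem oxygenase, by 1.87 ± 0.30 (SE, n = 2 pairs, adjusted p between 0.0104 and 0.0316 for the 4, limma). Nqo1, a target often used to read NRF2 activity, had a mean of 0.20 (adjusted p = 0.656, limma) and was singled out after its value was seen. That mean joined pairs on opposite sides of 0. The log2 ratio of Nqo1 was -0.34 and -0.28 in the pair labelled male and 0.80 and 0.60 in the pair labelled female. Without replicate 2 of the pair labelled male 6 of the list were called higher, and 7 were with the Feature Extraction ratios, the authors' value table or median centring.

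**Figure D4:**
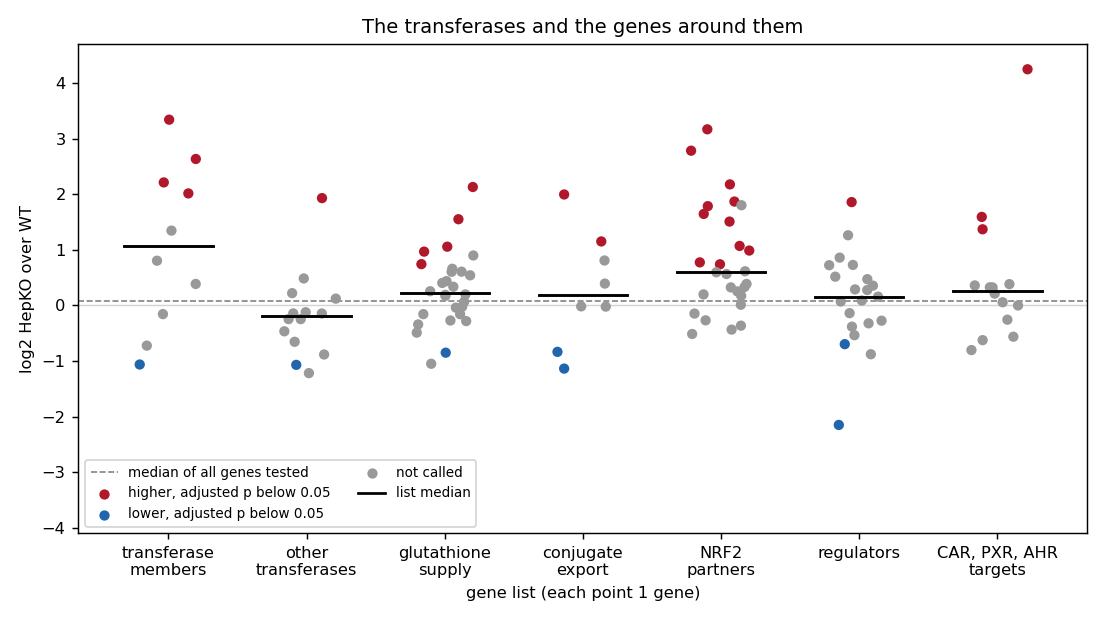
Mean log2 ratio of HepKO over WT (y axis) of each gene tested in the transferase set and in 6 lists of related genes (x axis). Each point is 1 gene, coloured by its call, the horizontal bars are list medians and the dashed line is the median of all genes, 0.08. The medians were 1.07 for the transferases, 0.59 for the NRF2 partners and -0.20 for the other transferases.

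Among the regulators known to act on transferase genes, 1 of 21 was called higher (4.76%, with 12% over all genes) and 2 lower (9.52%, with 3.71%). Their median was 0.16. Nfe2l2, which encodes NRF2, rose by 1.86 ± 0.26 (SE, n = 2 pairs, adjusted p = 0.0249, limma). Nr1i3, which encodes CAR, was lower at -2.15 ± 0.17 (adjusted p = 0.0141), and Stat5b, the growth hormone-responsive factor, at -0.70 ± 0.14 (adjusted p = 0.0495). Without replicate 1 or 2 of the pair labelled male, or replicate 1 of the pair labelled female, 1 regulator was lower, and without replicate 1 of the pair labelled male 2 were higher. Of 14 targets of CAR, PXR and AHR, 3 were called higher (21.4%, with 12% over all genes) and 0 lower, with a median of 0.27. They were Cyp2c55, a cytochrome P450 (4.25 ± 0.24), Alas1, the first enzyme of haem synthesis (1.59 ± 0.23), and Tiparp (1.37 ± 0.26), with adjusted p between 0.0112 and 0.0434 (limma). Cyp2b10, the usual readout of CAR in mouse liver, had a mean of -0.002 and was named after its value was seen. Its pairs lay on opposite sides of 0, at -0.19 and -0.28 in the pair labelled male and 0.31 and 0.15 in the pair labelled female.

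Markers of other liver cells moved with the genotype as well. The counts below stand beside 12% of all genes called higher and 3.71% called lower. Of 13 macrophage markers tested, 13 were called higher, and their summed intensity was 97366 to 107683 in HepKO mice against 11184 to 26040 in WT mice. For endothelial markers 8 of 12 were called higher (14457 to 14912 against 6145 to 8144), and for stellate cell and fibroblast markers 6 of 12 (18560 to 20561 against 9963 to 10474). Lymphocyte markers had 6 of 10 called higher (4991 to 11856 against 977 to 1049) and neutrophil markers 3 of 10 (2479 to 4732 against 812 to 917). Cholangiocyte and progenitor markers had 3 of 9 called higher (5274 to 8592 against 2030 to 2518), while the defining markers Krt7 and Cftr were not well above background on any array. Erythroid markers had 1 of 3 called higher and 1 lower. Of 11 hepatocyte markers 0 were called higher and 1 lower at limma's adjusted threshold, and their summed intensity was 1184040 to 1353690 in HepKO mice and 1122440 to 1347990 in WT mice. The part of these cells in the transferase values was not tested. In such bulk samples fewer cells of a type and less RNA per cell cannot be told apart.

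The genes whose 4 array values lay nearest to those of Gsta1 were Ms4a4b, S100a4 and S100a6, outside the family. Their root mean square distances from Gsta1 over the 4 arrays were 0.22, 0.22 and 0.23 on the log2 scale. Ms4a4b gave 4.21, 3.71, 2.67 and 2.49 on the arrays (male-labelled pair first, HepKO in Cy5 first in each pair). S100a4, a calcium-binding protein of motile and immune cells, gave 4.29, 4.05, 2.82 and 2.39.

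Over 14 alternative settings, no member changed the sign of its mean. Gsta1 stayed between 3.14 and 3.37, Gsta2 between 2.48 and 2.78, and Gstm2 between 2.05 and 2.36. Gstm3 moved more, from 1.44 with median centring to 2.46 on arrays with HepKO in Cy5 alone. The adjusted p exceeded 0.05 for all 4 when outlier spots entered the background model and when dim probes were kept.

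**Figure D5:**
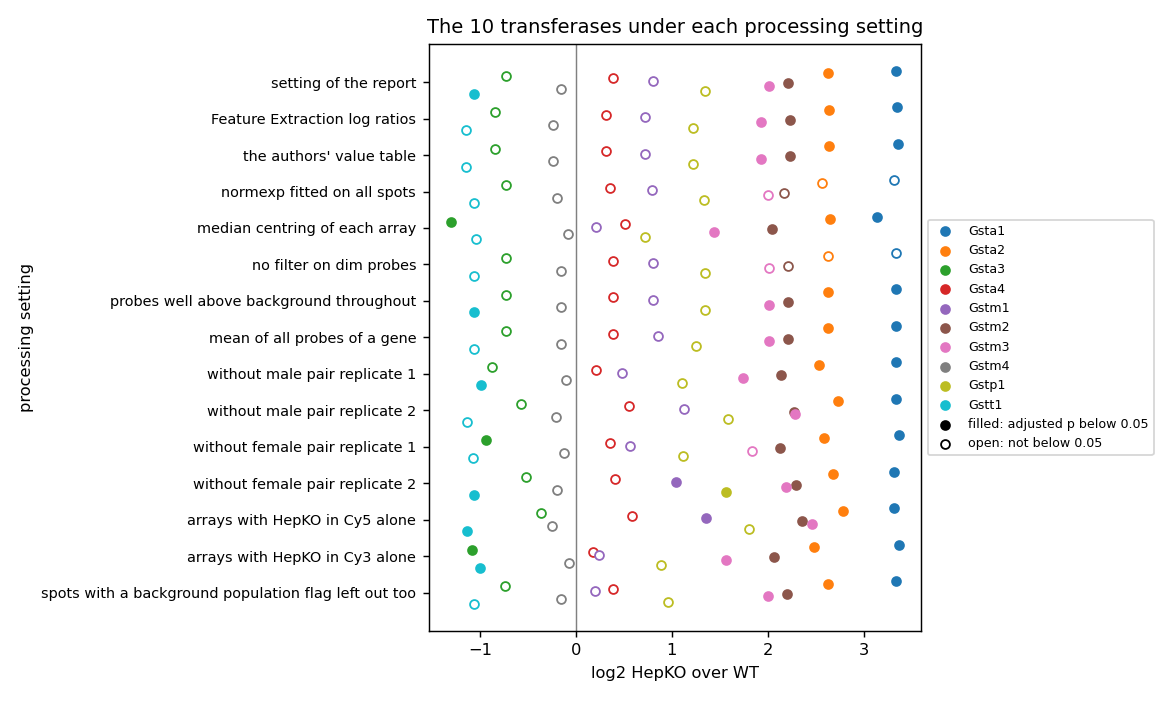
Mean log2 ratio of HepKO over WT (x axis) of the 10 transferases under the reported and 14 alternative processing settings (y axis). Filled points have an adjusted p below 0.05 in limma and open points do not. Gsta1 and Gsta2 have the highest and second highest values in every setting, while Gstm1 ranges from 0.20 to 1.36 and all points are open in both settings in which 0 genes passed. The 0.20 comes from the setting without background population flags, where a pair value could rest on 1 array.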

How the data were processed

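RNA of 4 mice was measured on 4 arrays, 2 per pair. Per the file headers, the software was Agilent Feature Extraction 10.2.1.3. The deposited intensity values used were each spot's mean signal and its local median background, not subtracted. The deposited log10 ratios in the same files, background-subtracted and dye-normalised by that software per the file headers, and the authors' value table of log10 ratios served as alternatives. Further steps are not given in the sources used here.

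Spots with a non-uniformity or feature population outlier flag were left out before normexp (offset 50), and loess was run within each array with control spots at weight 0 (limma 3.58.1, R 4.3.3). Ratios were oriented as HepKO over WT on the log2 scale, both arrays of a pair, which share their extracts, were averaged, and lmFit and eBayes were run on the 2 pair values (1 residual degree of freedom, 3.12 prior degrees of freedom). Probes that did not reach well above background, in the channel of either genotype, on the 2 arrays of any pair were dropped. A gene's brightest remaining probe represented it. Symbols came from RefSeq by accession, and 22951 of 41174 probes were named. Mouse levels were channel values after quantile normalisation between arrays, on the log2 scale. In simulated data for this comparison over 11495 genes, 186 of 200 genes changed by 2 on the log2 scale were called and 0 of 200 changed by 1. Each simulation held 200 changed genes, whereas 1805 genes were called in the data. The Benjamini-Hochberg cutoff depends on that number, so the simulated counts do not say which sizes of change could be called here.

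Members and gene lists were chosen with earlier results of these data known. Of each list, every called gene was named, at most 4 by size, plus the 3 genes nearest to Gsta1. Alternatives covered the source of the ratio, background, normalisation, probe filter, gene summary, single arrays and dye orientation. Promoter windows came from RefSeq (GRCm38.p6). Protein and probe sequences were not used here.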

Additional observations from a re-analysis of the deposited data

Results flagged for a closer look

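Gstm4 moved in opposite directions in the pairs on every array, with a mean log2 ratio of HepKO over WT of -0.60 in the pair labelled male and 0.29 in the pair labelled female. With 1 pair of each label the difference was not tested, and the labelled sex, the age and the slide changed together.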

How the results depend on the processing

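Of 140 member values over 14 alternatives, 116 kept their side of the threshold, 18 lost a call, 6 gained one and 0 changed sign. With normexp fitted on all spots, 0 members and 0 genes were called in either direction, as were 0 genes of the 5 pathway lists, with Gsta1 at 3.31, Gsta2 at 2.57, Gstm2 at 2.17, Gstm3 at 2.00 and Gstt1 at -1.06. At an unadjusted p below 0.05 limma still had 5 members higher and 2 lower. In that setting the SD of the log2 ratios of replicate 2 of the pair labelled female was 0.28 instead of 0.50. On the other arrays it was 0.72, 0.65 and 0.54 with and without the outlier spots. The highest green background of a spot was 41156.5 on replicate 2 of the pair labelled female and 35.5 to 39.5 on the other arrays. With no filter on dim probes (16339 genes tested) all these counts were 0 too, with values of 3.34, 2.63, 2.21, 2.01 and -1.06, and 5 and 2 members at an unadjusted p below 0.05. Median centring gave Gsta3 -1.30 (called) and Gstt1 -1.05 (not called). Gstt1 was -1.14 and not called in the Feature Extraction ratios and in the authors' value table, where 0 members and 3 pathway genes were lower. It was also not called with all probes of a gene averaged (-1.06) or with background population flags removed too, an alternative added after seeing the data (-1.07), each with 0 members lower. In that last setting Gstm1 was 0.20. A gene was kept there if each pair had at least 1 array left, so a pair value could rest on 1 dye orientation. On arrays with HepKO in Cy3 alone Gsta3 was -1.09, 2 members were lower and 683 genes were lower. On those with HepKO in Cy5 alone Gstm1 was 1.36. The causes were not tested.

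Leaving out 1 array at a time gave 3.31 to 3.37 for Gsta1, 2.53 to 2.73 for Gsta2, -0.94 to -0.51 for Gsta3, 0.48 to 1.12 for Gstm1, 2.13 to 2.29 for Gstm2, 1.74 to 2.28 for Gstm3, 1.11 to 1.58 for Gstp1 and -1.14 to -0.99 for Gstt1. Members called ranged from 3 to 6 higher and 0 to 1 lower, all genes from 920 to 1572 higher and 202 to 572 lower, and pathway genes from 11 to 23 higher and 2 to 8 lower (20 and 6 with all arrays). Without replicate 2 of the pair labelled male, 202 genes were lower, 11 pathway genes higher and 2 lower. Without replicate 1 of the pair labelled female, 2 pathway genes were lower. The replicate numbers mark dye orientation, so no further pairing was made by them. The matched HepKO and WT mice were already paired in the reported fit.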
